A study of Mus musculus with 8 samples.

Results

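The cytosolic and mitochondrial chaperone families were followed in pancreatic stellate cells (PSCs), fibroblast-like cells that reside in the pancreas, after exposure to medium conditioned by cancer cells. Members were all genes of the count table whose symbol begins with Hspa, Hspb, Hsph, Dnaja, Dnajb, Dnajc, Bag or Cct followed by a digit, together with Hsp90aa1, Hsp90ab1, Hspd1, Hspe1, Tcp1, Hsf1, Hsf2, Cryab, Stip1, Ahsa1, Ptges3, Chordc1 and Fkbp4. Hspa5, Dnajb9, Dnajb11 and Dnajc3, which serve the endoplasmic reticulum, were left out by the rule. This gave 76 of the 12160 genes in the table: 32 J-domain genes, 11 HSP70 genes, 8 genes of the TRiC chaperonin, 7 small heat shock proteins, 7 genes of the HSP90 machinery, 6 BAG genes, the mitochondrial chaperonin pair Hspd1 and Hspe1, the heat shock factors Hsf1 and Hsf2, and the HSP110 gene Hsph1. Dnaja1 was not analysed here.

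All 8 samples were immortalized mouse PSCs of a single line, seeded at 20000 cells in growth factor reduced Matrigel according to the sample labels (the study's methods state another number) and kept for 4 days in DMEM with serum. The medium was then replaced for 4 days. In 3 domes the new medium had been conditioned by KPC-shBrca2 organoids, in 3 domes by KPC-shControl organoids, and 2 domes were controls (groups shBrca2-CM, shControl-CM and DMEM). KPC denotes a mouse model of pancreatic cancer, whose tumour cells were here cultured as organoids. The knockdown of Brca2 lies in the cells that made the medium, so it cannot be read from these libraries. The control is named DMEM in the sample titles and in the study's Results, but the recorded treatment and the methods name medium that PSCs had conditioned themselves. In the second case the control cells would also have met a used medium. Whether the domes came from separate cell batches is not stated, so p-values measure the spread between domes. The study asked which transcriptional changes in PSCs depend on loss of Brca2 in the cancer cells with a focus on HSF1, the heat shock factor whose classical targets are among the members.

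Chaperones bind unfolded or newly made proteins and keep them from aggregating. HSP70 proteins work in cycles of ATP use that J-domain proteins start and that HSP110 and BAG proteins reset by nucleotide exchange, HSP90 with its co-chaperones matures kinases and steroid receptors, TRiC folds actin and tubulin in a closed chamber, and HSP60 with HSP10 (Hspd1 and Hspe1) does the same for proteins imported into mitochondria. Small heat shock proteins hold unfolded proteins without using ATP and bind desmin, actin and other parts of the cytoskeleton in contractile cells. Under stress HSF1 forms trimers that bind heat shock elements, arrays of the unit GAA in alternating orientation, in front of many of these genes.

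Levels are given as CPM, the counts of a gene scaled to the size of its library after edgeR's TMM correction over all 8 libraries. Reads came from the 3′ ends of transcripts, and levels were compared between libraries, not between genes. To be called higher or lower, a gene had to have an edgeR adjusted p-value below 0.1, a log2 fold change of more than 0.5 in size and more than 5 normalized counts on average. Total counts were 655996 to 1095534 in the shBrca2-CM libraries, 1093609 to 1624392 in the shControl-CM libraries and 4623846 and 5476988 in the DMEM libraries, so 3 counts, taken as the floor of detection, were worth 0.521 CPM in the deepest library and 4.34 CPM in the shallowest. Such floors cover counting error only. All 12 of 12 stellate cell and fibroblast markers were counted. The epithelial markers Krt18, Krt19 and Muc1 summed to 37.0 to 41.7 CPM in DMEM, 57.7 to 70.6 CPM with shControl-CM and 59.3 to 94.1 CPM with shBrca2-CM. Krt18 and Muc1 were called higher than in DMEM with both media and Krt19 lower (log2 fold changes -3.18 and -1.03), while Epcam and Cdh1 were not analysed here.

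Heat shock elements were looked for as the letters GAANNTTCNNGAA on both strands, where N is any base, in the 250 bases before and 50 bases after the start sites given by RefSeq on GRCm38.p6, the assembly of the authors' mm10 build. Windows were at hand for 59 of the 76 members, and those of Cryab, Hspb2, Hspa8, Hspa9, Hsp90aa1, Hsp90ab1 and Hsf1 were among those not searched. Of these, 5 members held a match (8.47%), against 179 of 27025 genes with a window (0.662%) and 53 of 9638 genes of the count table with a window (0.55%). A shorter match of 2 units (GAANNTTC or TTCNNGAA, which also lies inside every longer match) was in 18 of the 59 members (30.5%), 17% of all genes and 13.7% of genes of the table. The 5 sites with 3 or more units are shown because their genes were called in different directions, or not at all, with conditioned medium, as described with each family below. Each is written 5′ to 3′ on the strand of its gene, with the matching letters in capitals, and coordinates are those of the capitals. Hspd1 and Hspe1 are transcribed away from a shared upstream region, and their site is the same 18 bases (4 units) read from either strand, 127 bases before the start of Hspd1 and 72 bases before that of Hspe1.
Hspd1, chr1:55088059-55088076, minus strand: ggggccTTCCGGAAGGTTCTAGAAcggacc
Hspe1, chr1:55088059-55088076, plus strand: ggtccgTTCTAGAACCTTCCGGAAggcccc
Dnajb6, chr5:29735852-29735864, plus strand: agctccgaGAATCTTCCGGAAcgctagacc
Hsph1, chr5:149636288-149636300, minus strand: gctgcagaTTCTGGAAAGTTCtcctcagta
Chordc1, chr9:18292263-18292285, plus strand: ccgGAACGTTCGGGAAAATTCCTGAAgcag
The match of Chordc1 spans 5 units across the start site, and that of Hsph1 lies after its start site. A match says only that these letters are present.

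With conditioned medium, more chaperone genes were called lower than higher, and the members took a smaller share of all counts. The 76 members took 1.21% and 1.22% of all counts in the DMEM libraries, 0.989% to 1.01% with shControl-CM and 0.985% to 1.02% with shBrca2-CM. With shControl-CM, 21 of 76 members were called lower than in DMEM (27.6%, against 18.9% of all genes tested) and 8 higher (10.5%, against 18.2%). With shBrca2-CM, 24 were called lower (31.6%, against 19.2% of all genes) and 8 higher (10.5%, against 18.6%). The median log2 fold change of the members was -0.16 with shControl-CM (-0.10 over all genes tested) and -0.35 with shBrca2-CM (-0.05 over all genes tested). Both comparisons used the same DMEM libraries, so a deviation of these moves both in the same direction. In bulk RNA, a lower level cannot be told apart from fewer cells that express the gene.

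**Figure D1:**
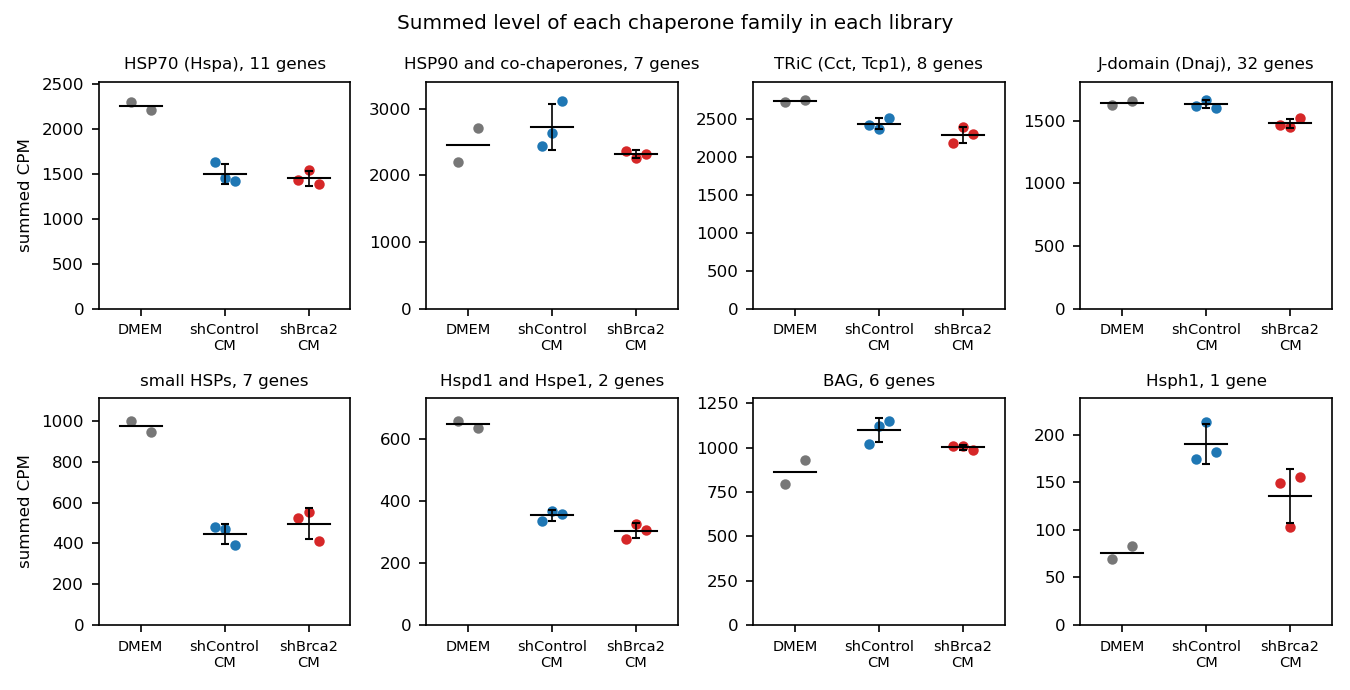
Summed CPM (vertical axis, from 0) of the members of 8 chaperone families in each library of the DMEM, shControl-CM and shBrca2-CM groups. Points are libraries, horizontal lines are means and bars are SD (n = 3, not drawn for the 2 DMEM libraries). HSP70, TRiC, small HSP and Hspd1 with Hspe1 were lower in all 6 conditioned medium libraries than in both DMEM libraries, BAG and Hsph1 were higher in all 6, and the DMEM libraries of the HSP90 group spanned a range that overlapped both other media.

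Summed levels differed in direction between the families. The 7 small heat shock proteins summed to 946 to 999.99 CPM in DMEM, 393 to 482 CPM with shControl-CM and 410.1 to 556 CPM with shBrca2-CM. HSP70 genes summed to 2219 to 2298 CPM in DMEM, 1418 to 1630 CPM with shControl-CM and 1384 to 1543 CPM with shBrca2-CM. Hspd1 and Hspe1 together were at 634 to 657 CPM, 333 to 368 CPM and 278 to 326 CPM. TRiC genes differed less, with 2714 to 2737 CPM in DMEM, 2367 to 2511 CPM with shControl-CM and 2171 to 2382 CPM with shBrca2-CM. BAG genes were at 795 to 932 CPM in DMEM and at 985 to 1149 CPM over all 6 conditioned medium libraries, mostly from Bag1 and Bag6. Of these, Bag6 was above both DMEM libraries in all 6, while Bag1 with shBrca2-CM (344, 336 and 320 CPM) overlapped DMEM (267 and 355 CPM). The median log2 fold change of the 6 BAG genes with shBrca2-CM was -0.11. The HSP90 group ran from 2206 to 2713 CPM in DMEM and overlapped both other groups. J-domain genes summed to 1608 to 1670 CPM over DMEM and shControl-CM libraries together and to 1455 to 1521 CPM with shBrca2-CM, without overlap. As a share of all counts, without TMM scaling, they overlapped between the conditioned media (0.151% to 0.156% in shBrca2-CM libraries against 0.146% to 0.159% in shControl-CM libraries).

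Among small heat shock proteins, none of the 7 was called higher with either medium and 4 were called lower with each (over all genes tested, 18.2% and 18.6% were called higher and 18.9% and 19.2% lower). Cryab, the gene of alpha-B crystallin, had the largest decrease of all 76 members. It was at 403 and 357 CPM in the 2 DMEM libraries, 15.4, 22.2 and 23.8 CPM in the 3 libraries of shControl-CM and 59.3, 70.9 and 30.2 CPM in the 3 shBrca2-CM libraries. Every conditioned medium library was far below both DMEM libraries, on average 18.8-fold with shControl-CM (log2 fold change -4.23 with a standard error of 0.20, edgeR adjusted p = 8.72e-07) and 7.36-fold with shBrca2-CM (log2 fold change -2.88 with a standard error of 0.18, edgeR adjusted p = 1.52e-20). Hspb2, whose protein binds the kinase DMPK in muscle, lies within the span annotated for Cryab on the opposite strand (Cryab chr9:50745951-50756636, Hspb2 chr9:50751072-50752354, GRCm38.p6), and the strand setting of the counting is not given in the sources used here, so reads of this pair may not be separable. It had 42 and 39 counts in DMEM, 1, 2 and 4 with shControl-CM and 3, 3 and 3 with shBrca2-CM. Hspb2 was thus called lower with shControl-CM (log2 fold change -2.16 with a standard error of 0.52, edgeR adjusted p = 0.0116), and with shBrca2-CM (log2 fold change -1.17 with a standard error of 0.49, edgeR adjusted p = 0.0512) from so few counts that the ratio of DMEM to shBrca2-CM was 2.27 with a 95% counting interval of 1.14 to 5.14. This second call was lost in 7 of 16 alternatives.

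Hspb6, a small heat shock protein of smooth and cardiac muscle, fell with both media, from 214 and 169 CPM in DMEM to 101, 132 and 64.5 CPM with shControl-CM and 126, 106 and 87.9 CPM with shBrca2-CM (log2 fold changes -0.97 and -0.86, edgeR adjusted p = 0.0169 and 1.24e-05). Hspb7, its relative from heart muscle, stood at 74.03 and 94.4 CPM in DMEM, 43.6, 59.9 and 49.6 CPM with shControl-CM and 60.8, 92.1 and 78.1 CPM with shBrca2-CM. It was called lower with shControl-CM (log2 fold change -0.74 with a standard error of 0.20, edgeR adjusted p = 0.0197), while the shBrca2-CM libraries overlapped those of DMEM (log2 fold change -0.11, 95% interval -0.46 to 0.23). Hspb11, which despite its name belongs to a transport complex of cilia, was called lower with shBrca2-CM (log2 fold change -0.82, edgeR adjusted p = 0.0322), a call lost in 6 of 16 alternatives. Hspb1 (HSP27) and Hspb8 (HSP22, the partner of Bag3) were not called in the main fits. Among the alternatives, Hspb1 was called lower with shBrca2-CM with a replicate block, without a fold limit, in thinned libraries and without the third shBrca2-CM library. With shControl-CM it was called lower with total counts and without the first shControl-CM library. Hspb1 ranged from 43.6 to 84.7 CPM over all 8 libraries with overlap between the groups, and Hspb8 from 146 to 248 CPM.

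The chaperonin of mitochondria fell in all conditioned medium libraries. Hspd1 was at 323 and 291 CPM in DMEM, 147, 173 and 141 CPM with shControl-CM and 145, 152 and 119.8 CPM with shBrca2-CM, a 2.02-fold and a 2.23-fold decrease (log2 fold change -1.01 with a standard error of 0.16, edgeR adjusted p = 0.00134, and log2 fold change -1.16 with a standard error of 0.15, edgeR adjusted p = 3.58e-09). Its co-chaperonin Hspe1 was at 334 and 342 CPM, 186, 195 and 217 CPM and 133, 174 and 185 CPM in the same order (log2 fold change -0.77 with a standard error of 0.15, edgeR adjusted p = 0.00365, and log2 fold change -1.03 with a standard error of 0.15, edgeR adjusted p = 5.16e-08). Neither DMEM library overlapped any other library for either gene. The pair shares the 4-unit heat shock element shown above, and the annotated spans overlap on opposite strands (Hspd1 chr1:55077833-55088243, Hspe1 chr1:55088148-55091317). Hspa9 (mortalin), the HSP70 of the mitochondrial matrix, fell likewise from 298 and 302 CPM to 223, 140.1 and 136 CPM and 139, 172 and 150.02 CPM (log2 fold changes -0.85 and -0.96, edgeR adjusted p = 0.014 and 2.08e-07). The shControl-CM libraries of Hspa9 spread widely, with the first at 223 CPM and the others at 140.1 and 136 CPM.

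Hspa9 pulls proteins through the inner membrane together with J-domain proteins of the import motor. Of these, Dnajc19 fell from 79.4 and 63.6 CPM to 28.2, 29.95 and 33.3 CPM with shControl-CM and 27.5, 43.6 and 19.5 CPM with shBrca2-CM (log2 fold change -1.24 with a standard error of 0.20, edgeR adjusted p = 0.00164, and log2 fold change -1.29 with a standard error of 0.22, edgeR adjusted p = 1.89e-06), and Dnajc15 was called lower with shBrca2-CM (log2 fold change -0.54, edgeR adjusted p = 0.0971) but not with shControl-CM (log2 fold change -0.62, edgeR adjusted p = 0.112). The Dnajc15 call was lost in 11 of 16 alternatives. Dnajc19 overlaps Fxr1 on the opposite strand. For mitochondria, 8 members were listed (Hspd1, Hspe1, Hspa9, Dnaja3, Dnajc11, Dnajc15, Dnajc19 and Dnajc30). Of these, 4 were called lower with shControl-CM and 5 with shBrca2-CM, none higher, and the median log2 fold changes were -0.69 and -0.75. The list may not be complete, and Dnajc4, called higher with shControl-CM, was not on it. Dnaja3, Dnajc11 and Dnajc30 were not called with either medium. Of 12 other genes of mitochondrial protein quality control, 4 were called higher with shControl-CM (the proteases Clpp, Lonp1, Htra2 and Afg3l2, log2 fold changes 0.63, 0.56, 0.74 and 0.59) and none lower. With shBrca2-CM 2 were called higher (Htra2, log2 fold change 0.74, and the nucleotide exchange factor of Hspa9, Grpel1, log2 fold change 1.44) and the prohibitin gene Phb2 lower (-0.66). The Grpel1 value rests on 2, 7 and 7 counts with shBrca2-CM. Phb2 was also below both DMEM libraries in all shControl-CM libraries, under the fold limit (log2 fold change -0.43, edgeR adjusted p = 0.0628). Over all genes tested, 18.9% were called lower and 18.2% higher with shControl-CM, and 19.2% and 18.6% with shBrca2-CM.

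**Figure D2:**
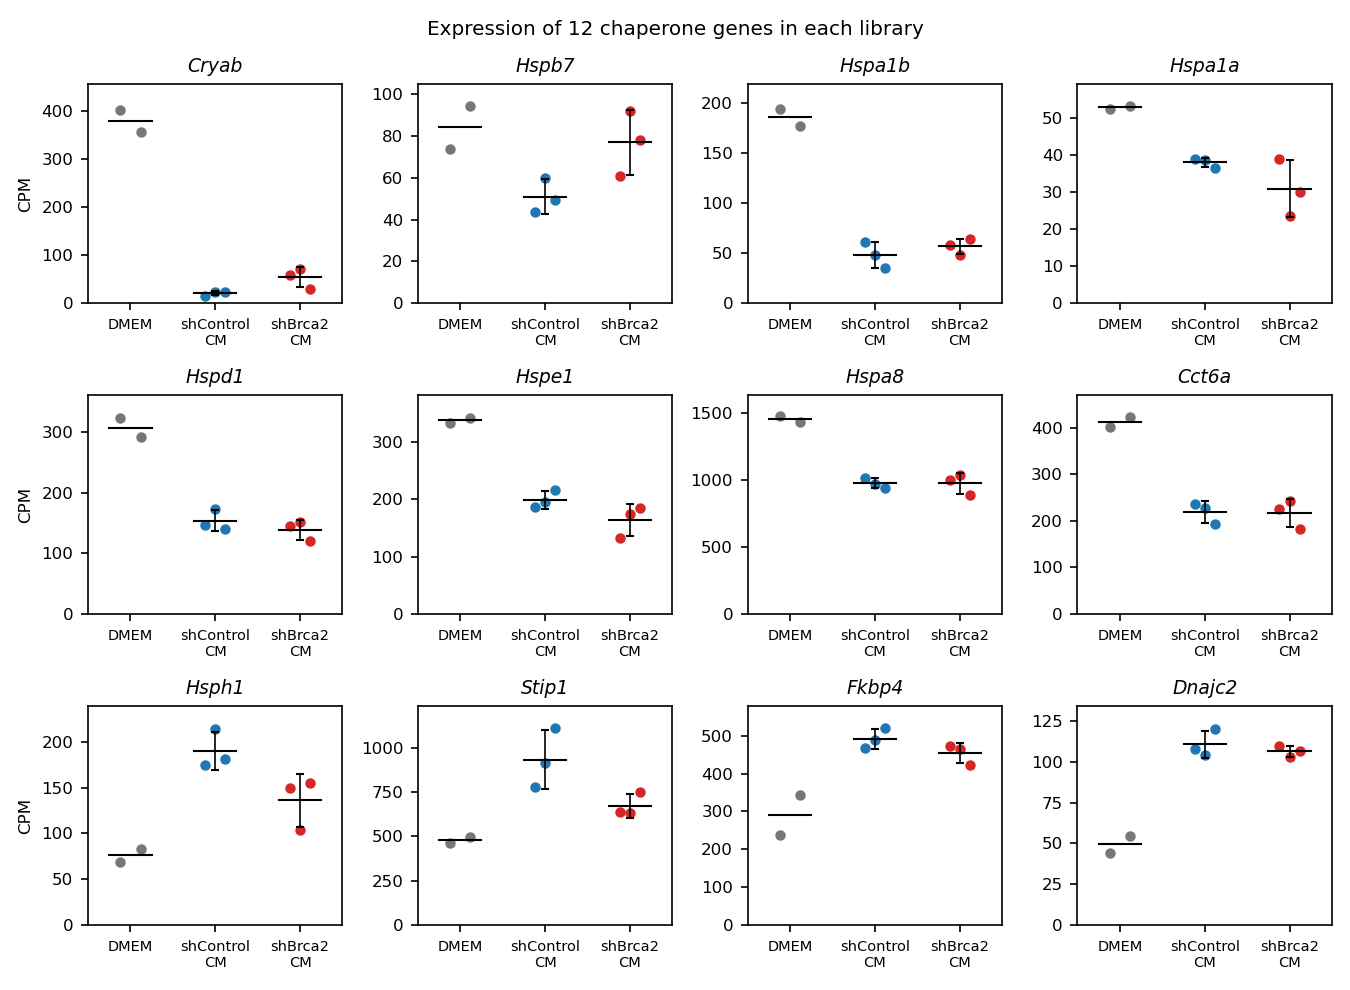
CPM (vertical axes, from 0) of 12 chaperone genes in the 2 DMEM, 3 shControl-CM and 3 shBrca2-CM libraries. Points are libraries, horizontal lines means and bars SD (n = 3). Cryab, Hspa1b, Hspd1, Hspe1, Hspa8 and Cct6a were below both DMEM libraries in all 6 conditioned medium libraries, and Hsph1, Stip1, Fkbp4 and Dnajc2 were above both in all 6.

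Cytosolic HSP70 genes fell as well where they were called, with the exception of Hspa4l. Hspa8, the constitutive HSC70, was at 1482 and 1439 CPM in DMEM, 1019, 972 and 942 CPM with shControl-CM and 1005, 1035 and 886 CPM with shBrca2-CM, 1.501-fold and 1.496-fold lower (log2 fold change -0.59 with a standard error of 0.14, edgeR adjusted p = 0.0113, and log2 fold change -0.58 with a standard error of 0.13, edgeR adjusted p = 0.000224). The inducible HSP70 is made from Hspa1a and Hspa1b, which lie near each other on chromosome 17 (Hspa1a chr17:34969359-34972156, Hspa1b chr17:34956429-34959238) and are near-identical, so the split of their reads is uncertain. Hspa1b fell from 194 and 177 CPM to 60.9, 48.3 and 35.3 CPM and 57.9, 48.5 and 63.9 CPM (log2 fold change -1.95 with a standard error of 0.22, edgeR adjusted p = 0.000177, and log2 fold change -1.69 with a standard error of 0.17, edgeR adjusted p = 9.83e-13). Hspa1a was at 52.7 and 53.3 CPM in DMEM, 39.1, 38.7 and 36.7 CPM with shControl-CM and 39.1, 23.6 and 30.2 CPM with shBrca2-CM. It was below DMEM in all 6 libraries, passed the fold limit with shBrca2-CM (log2 fold change -0.79 with a standard error of 0.21, edgeR adjusted p = 0.00199) and not with shControl-CM (log2 fold change -0.48, edgeR adjusted p = 0.0786). Their sum, which does not depend on how reads were split between them, was 247 and 230.2 CPM in DMEM, 72.0 to 99.9 CPM with shControl-CM and 72.2 to 96.9 CPM with shBrca2-CM.

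The 250 bases before both genes were identical at 247 positions (98.8%). Those of Hspa1b are shown, since these genes are the classical readout of HSF1 and a larger decrease was counted on Hspa1b than on Hspa1a. Capitals mark the only match to 2 alternating units, which both genes hold, and no match to 3 units was present. Counting from 1 at the 5′ end and giving the base of Hspa1b first, Hspa1a differs at T44C, C47T and G249T.
Hspa1b, chr17:34959239-34959488, minus strand: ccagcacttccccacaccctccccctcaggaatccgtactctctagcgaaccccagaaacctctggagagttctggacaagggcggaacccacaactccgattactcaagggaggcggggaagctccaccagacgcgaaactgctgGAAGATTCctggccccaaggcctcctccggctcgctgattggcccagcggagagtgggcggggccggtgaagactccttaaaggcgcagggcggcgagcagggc
Hspa4l, a cytosolic relative of HSP110, was called higher with shBrca2-CM (log2 fold change 0.52, edgeR adjusted p = 0.0551), a call lost in 9 of 16 alternatives. Hspa4, Hspa14, Hspa12a, Hspa12b, Hspa2 and Hspa13 were not called with either medium, and their log2 fold changes ran from -1.03 to 0.79.

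Hsph1 (HSP110), which exchanges nucleotide on HSP70 and helps it to dissolve aggregates, rose where HSP70 fell. It was at 69.2 and 82.8 CPM in DMEM, 174, 214 and 181 CPM with shControl-CM and 149, 103 and 155 CPM with shBrca2-CM. All 6 conditioned medium libraries were above DMEM, 2.48-fold with shControl-CM (log2 fold change 1.31 with a standard error of 0.18, edgeR adjusted p = 0.000531) and 1.804-fold with shBrca2-CM (log2 fold change 0.85 with a standard error of 0.17, edgeR adjusted p = 2.74e-05). The HSP90 group split. Of its co-chaperones, Stip1 (HOP), which joins HSP70 to HSP90, was at 464 and 495 CPM in DMEM, 777, 911 and 1108 CPM with shControl-CM and 637, 629.7 and 750.1 CPM with shBrca2-CM (log2 fold change 0.95 with a standard error of 0.18, edgeR adjusted p = 0.00315, and log2 fold change 0.49 with a standard error of 0.14, edgeR adjusted p = 0.00289). The second value is just under the fold limit, and Stip1 was called in 7 of 16 alternatives. Fkbp4 (FKBP52), a prolyl isomerase on HSP90 that carries steroid receptors, rose from 238 and 344 CPM to 468, 489 and 520.2 CPM and 473, 465 and 423 CPM (log2 fold change 0.75 with a standard error of 0.18, edgeR adjusted p = 0.0116, and log2 fold change 0.64 with a standard error of 0.15, edgeR adjusted p = 0.000306). Both Fkbp4 calls were lost without the first DMEM library, with log2 fold changes of 0.53 and 0.40.

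The HSP90 genes themselves were lower or not called. Hsp90aa1, the inducible HSP90 alpha, had 29.5 and 40.2 CPM in DMEM, 19.9, 17.4 and 21.1 CPM with shControl-CM and 21.7, 27.4 and 18.6 CPM with shBrca2-CM, without overlap with DMEM (log2 fold change -0.84 with a standard error of 0.26, edgeR adjusted p = 0.0317, and log2 fold change -0.64 with a standard error of 0.24, edgeR adjusted p = 0.0306). The call with shBrca2-CM was lost in 6 of 16 alternatives. Hsp90ab1, the constitutive HSP90 beta, was at 1318 and 1685 CPM, 1023, 1094 and 1345 CPM and 1105, 994 and 992 CPM and was called lower with shBrca2-CM (log2 fold change -0.54 with a standard error of 0.13, edgeR adjusted p = 0.000727) but not with shControl-CM, where a library overlapped DMEM (log2 fold change -0.39, edgeR adjusted p = 0.114). Ptges3 (p23), which closes the HSP90 clamp, was called lower with both media (log2 fold changes -0.77 and -0.71), with shControl-CM in 11 of 16 alternatives. Chordc1, an HSP90 partner with the 5-unit element shown above, had 65 and 46 counts in DMEM, 10, 3 and 1 with shControl-CM and 5, 7 and 5 with shBrca2-CM. Its lower call with shControl-CM (log2 fold change -1.63 with a standard error of 0.54, edgeR adjusted p = 0.041) was lost in 6 of 16 alternatives, and the log2 fold change ran from -2.70 without the first shControl-CM library to -1.09 without the third. With shBrca2-CM all 3 libraries (7.23, 8.71 and 4.44 CPM) were below both DMEM libraries (11.3 and 9.89 CPM) without a call (log2 fold change -0.70 with a standard error of 0.39, edgeR adjusted p = 0.155). Ahsa1, which speeds the ATP use of HSP90, was higher in all 6 libraries by less than the fold limit (log2 fold changes 0.45 and 0.46).

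The 8 TRiC subunits form a single complex, and they were not all called together. Cct6a was at 401 and 422 CPM in DMEM, 237, 227 and 194 CPM with shControl-CM and 226, 243 and 183 CPM with shBrca2-CM, lower in all 6 libraries (log2 fold change -0.92 with a standard error of 0.16, edgeR adjusted p = 0.0019, and log2 fold change -0.93 with a standard error of 0.14, edgeR adjusted p = 3.39e-07). It overlaps Psph on the opposite strand. Cct5 and Cct4 were called lower with shControl-CM (log2 fold changes -0.52 and -0.77) and not with shBrca2-CM (log2 fold changes -0.40 and -0.32), and neither differed detectably between the conditioned media (log2 fold changes 0.14 and 0.47, edgeR adjusted p = 0.703 and 0.525). The call of Cct5 was lost in 4 of 16 alternatives and that of Cct4 in 6, and the log2 fold change of Cct4 ran from -1.17 without the first shControl-CM library to -0.51 without the second. Cct2 was not called, with 95% intervals of -0.38 to 0.38 and -0.32 to 0.24, and Cct7 was above DMEM in all 6 libraries without a call (log2 fold changes 0.35 and 0.14). Tcp1, Cct3 and Cct8 had log2 fold changes from -0.40 to -0.12 and were not called. Of 8 partners of TRiC, namely prefoldin subunits, which bring actin and tubulin to it, and phosducin-like proteins, 4 were called lower with either medium. These were Pfdn1, Vbp1, Pdcl and Pdcl3 (log2 fold changes -0.76, -2.07, -1.36 and -0.94 with shControl-CM and -0.64, -1.07, -1.26 and -0.97 with shBrca2-CM). Vbp1 had 36, 6 and 4 counts with shControl-CM and 15, 22 and 20 with shBrca2-CM. Pfdn4 was called higher (log2 fold changes 2.19 and 1.77). The shares over all genes were 18.9% lower and 18.2% higher with shControl-CM and 19.2% and 18.6% with shBrca2-CM.

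Of 32 J-domain genes, 5 were called lower and 3 higher with shControl-CM, and 9 lower and 3 higher with shBrca2-CM. Over all genes tested, 18.9% were called lower and 18.2% higher with shControl-CM, and 19.2% and 18.6% with shBrca2-CM. All 3 Dnaja genes were uncalled with both media, and all called with shControl-CM belonged to the Dnajc class, whose members share little beyond the J-domain. Dnajc2 (MPP11), the J-domain protein that works with Hspa14 on the ribosome, rose from 43.97 and 54.8 CPM to 108, 104 and 120.2 CPM and 109.9, 103 and 107 CPM (log2 fold change 1.16 with a standard error of 0.18, edgeR adjusted p = 0.00131, and log2 fold change 1.11 with a standard error of 0.17, edgeR adjusted p = 2.29e-07), and overlaps Pmpcb and Psmc2 on the opposite strand. Hspa14 itself was not called. Dnajc18 was at 9.38 and 12.04 CPM in DMEM, 26.3, 19.3 and 33.96 CPM with shControl-CM and 49.2, 31.1 and 28.4 CPM with shBrca2-CM, higher in all 6 libraries (log2 fold change 1.32 with a standard error of 0.31, edgeR adjusted p = 0.00989, and log2 fold change 1.73 with a standard error of 0.27, edgeR adjusted p = 2.99e-07). Dnajc4 was called higher with shControl-CM (log2 fold change 0.63) and Dnajc1, a J-domain protein of the endoplasmic reticulum, with shBrca2-CM (log2 fold change 0.62). Both missed the call in the other comparison at log2 fold changes of 0.43 and 0.53, and the calls made were lost in 5 and 7 of 16 alternatives.

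Dnajc24 (DPH4), needed to make the diphthamide of elongation factor 2, was at 28.7 and 30.5 CPM in DMEM, 17.3, 26.1 and 8.83 CPM with shControl-CM and 11.6, 6.22 and 7.101 CPM with shBrca2-CM. It was called lower with shBrca2-CM (log2 fold change -1.87 with a standard error of 0.31, edgeR adjusted p = 1.33e-06), and its shControl-CM libraries ranged from 8.83 to 26.1 CPM, all below DMEM without a call (log2 fold change -0.81, edgeR adjusted p = 0.105). With shControl-CM it was called lower in 5 of 16 alternatives, and the log2 fold change ran from -1.18 without the second shControl-CM library to -0.49 without the third. Dnajc9, a histone chaperone, fell with both media (log2 fold changes -0.72 and -0.86), as did Dnajc21, which acts in ribosome assembly (log2 fold changes -0.57 and -0.81), and Dnajc25 (log2 fold changes -0.63 and -0.999). With shControl-CM these calls were lost in 10, 7 and 7 of 16 alternatives, and the libraries of Dnajc9 ran from 46.9 to 121 CPM. Dnajb5, Dnajb14 and Dnajc17 were called lower with shBrca2-CM only, at log2 fold changes of -1.13, -0.72 and -0.99, and no difference between the conditioned media was called for any of them. These 3 calls were lost in 7, 7 and 5 of 16 alternatives. Dnajc12, a co-chaperone of phenylalanine hydroxylase, was called lower with shControl-CM from 5, 2 and 6 counts (log2 fold change -1.26 with a standard error of 0.51, edgeR adjusted p = 0.0828), a call lost in 7 of 16 alternatives, among them without the first DMEM library (log2 fold change -0.63). Dnajb1 (HSP40), the stress-induced partner of Hspa1a and Hspa8, was not called. It was at 95.1 and 112 CPM in DMEM, 83.9, 104 and 95.1 CPM with shControl-CM and 81.01, 67.2 and 84.3 CPM with shBrca2-CM, with 95% intervals of the log2 fold change of -0.53 to 0.25 and -0.74 to -0.07. Dnajb6, which keeps polyglutamine proteins soluble and carries the 3-unit element shown above, was not called either (log2 fold changes -0.17 and -0.49).

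Of the BAG genes, Bag2, an inhibitor of the ubiquitin ligase CHIP, fell with both media from 42.4 and 47.9 CPM to 26.3, 27.1 and 27.2 CPM and 23.1, 21.2 and 27.5 CPM (log2 fold changes -0.76 and -0.89, edgeR adjusted p = 0.0223 and 0.00102). Bag6, which guards proteins destined for membranes, was above DMEM in all 6 libraries and was called with shControl-CM (log2 fold change 0.57) but was under the fold limit with shBrca2-CM (log2 fold change 0.47). Bag3, the stress-induced factor of chaperone-assisted autophagy, was at 64.8 and 63.4 CPM in DMEM, 64.7, 69.6 and 63.2 CPM with shControl-CM and 47.7, 59.7 and 61.2 CPM with shBrca2-CM. Its 95% intervals, -0.35 to 0.41 and -0.53 to 0.19, both include 0. Bag1 and Bag5 were not called, and Bag4 had at most 16 counts in any library.

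The heat shock factors were the only group besides Hsph1 with no negative value against DMEM. Hsf1 was at 113 and 162 CPM in DMEM, 188, 189 and 166 CPM with shControl-CM and 211, 192 and 184 CPM with shBrca2-CM. All 6 were above both DMEM libraries, of which the second lay next to the lowest shControl-CM library. Hsf1 passed the fold limit narrowly with shBrca2-CM (log2 fold change 0.51 with a standard error of 0.16, edgeR adjusted p = 0.00676) and was not called with shControl-CM (log2 fold change 0.39, edgeR adjusted p = 0.141). The call with shBrca2-CM was lost without a filter on low counts, with stricter limits and without the first shBrca2-CM library. Without the first or the second DMEM library, the log2 fold change of Hsf1 with shBrca2-CM was 0.27 or 0.79. Hsf1 overlaps Bop1 and Dgat1 on the opposite strand. Hsf2, the relative of Hsf1 that joins it in mixed trimers, had only 3 and 3 counts in the 2 deep DMEM libraries against 3, 10 and 17 with shControl-CM and 3, 6 and 7 with shBrca2-CM. The ratio to DMEM was 12.8 with shControl-CM (95% counting interval 5.24 to 37.6) and 10.6 with shBrca2-CM (3.93 to 33.0). Both were called (edgeR adjusted p = 0.00636 and 0.000148), both calls were lost when all libraries were thinned to the smallest total, and that with shControl-CM was lost without the first DMEM library (edgeR adjusted p = 0.103). HSF1 is regulated mainly as a protein, so the level of its mRNA is no measure of its activity.

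**Figure D3:**
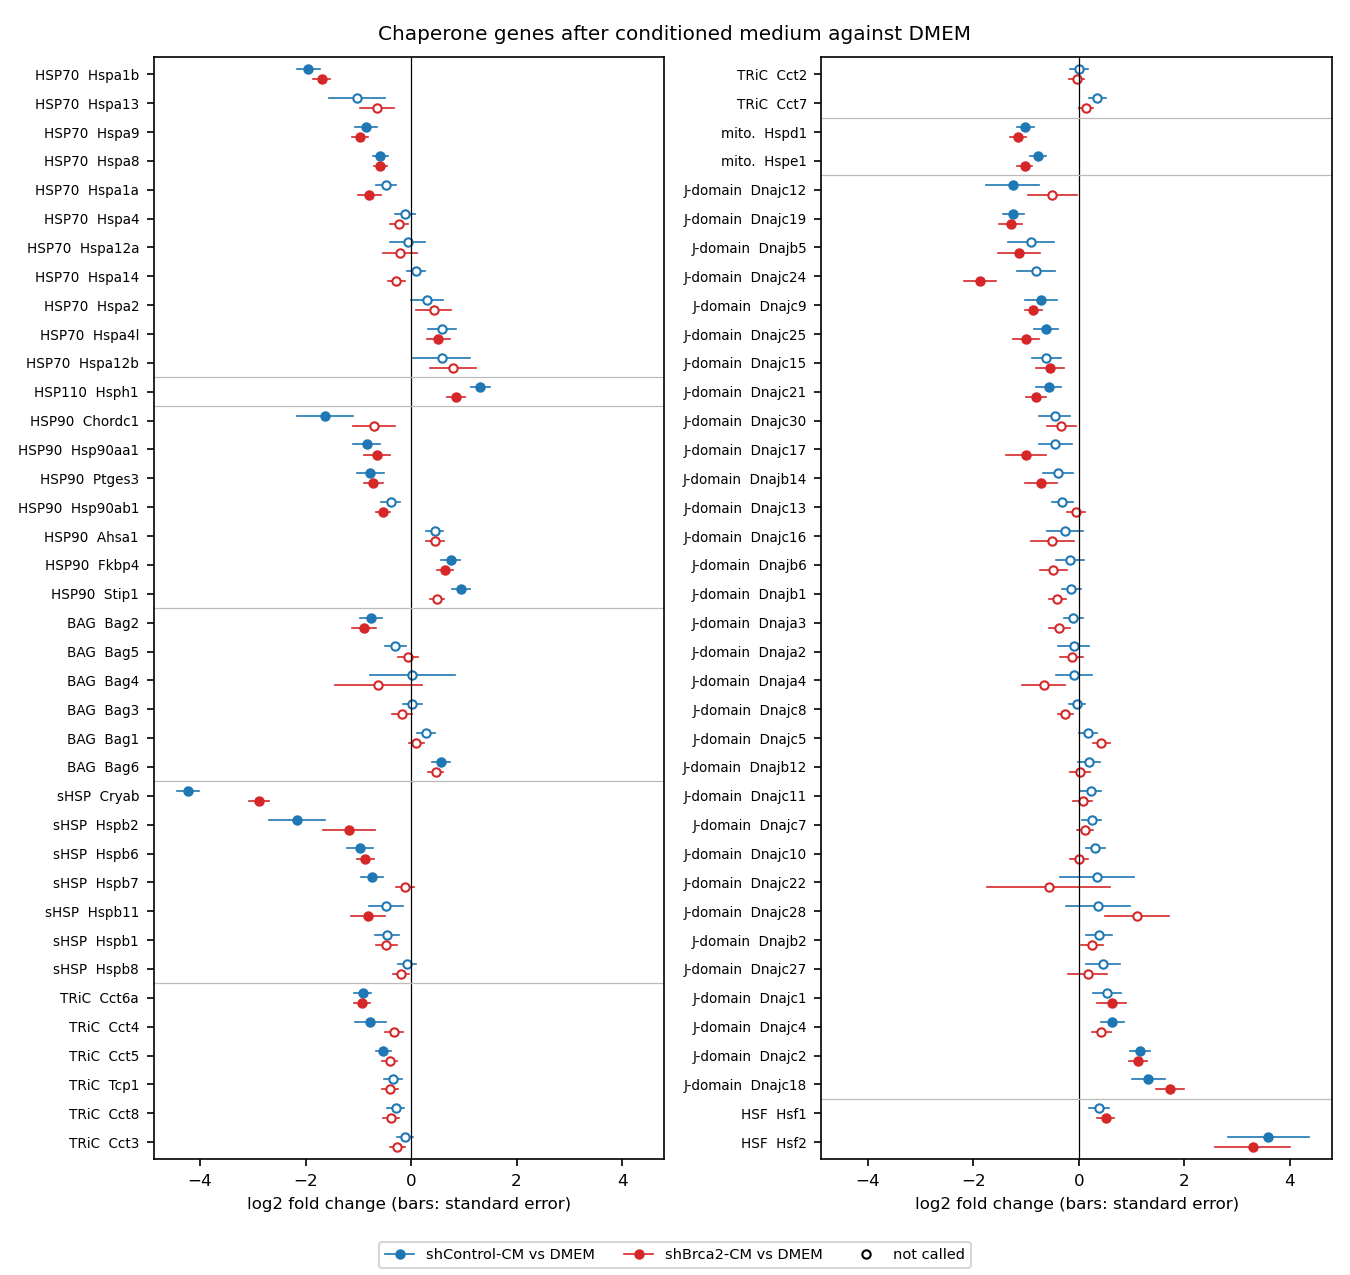
Log2 fold change (horizontal axis) of each of the 76 members with shControl-CM (blue) and shBrca2-CM (red) against the same 2 DMEM libraries, by family. Bars are standard errors and open circles were not called. Cryab lies farthest to the left at -4.23 and -2.88, Hsf2 farthest to the right from 6 DMEM counts, and called members are more often to the left (21 and 24) than to the right (8 and 8).

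Within the heat shock core, 17 classical HSF1-linked chaperones of which 16 were in the table, genes were called in both directions, as they were over all genes tested (18.9% lower and 18.2% higher with shControl-CM, 19.2% and 18.6% with shBrca2-CM). With shControl-CM 7 were lower (Cryab, Hspa1b, Hspa8, Hsp90aa1, Hspd1, Hspe1 and Chordc1) and 3 higher (Hsph1, Stip1 and Fkbp4), with a median log2 fold change of -0.47. With shBrca2-CM 8 were lower (Cryab, Hspa1a, Hspa1b, Hspa8, Hsp90aa1, Hsp90ab1, Hspd1 and Hspe1) and 2 higher (Hsph1 and Fkbp4), with a median of -0.56. Members with 3 or more units were among those that fell (Hspd1, Hspe1), rose (Hsph1), were called lower with shControl-CM and not with shBrca2-CM (Chordc1) or were not called (Dnajb6). Beside the same shares of all genes, of 7 other genes tied to HSF1, 4 were called higher with shControl-CM and none lower. These were the extracellular chaperone gene Clu (log2 fold change 2.45), the ubiquitin gene Ubb (0.61), heme oxygenase Hmox1 (0.89) and the autophagy receptor Sqstm1 (0.66). With shBrca2-CM Clu was called higher (log2 fold change 4.93) and Serpinh1 (HSP47), the collagen chaperone of the endoplasmic reticulum, lower (log2 fold change -0.62). Serpinh1 was also below both DMEM libraries in all shControl-CM libraries, just under the fold limit (log2 fold change -0.47, edgeR adjusted p = 0.0518).

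Co-chaperones outside the rule were called in both directions. Of 16 tested, 6 were called higher and 5 lower with shControl-CM, and 6 higher and 6 lower with shBrca2-CM, beside the 18.2% higher and 18.9% lower over all genes with shControl-CM and 18.6% and 19.2% with shBrca2-CM. St13 (HIP), which stabilizes HSP70 bound to its client, fell from 142 and 193 CPM to 92.3, 97.6 and 113 CPM and 82.5, 99.6 and 89.7 CPM (log2 fold changes -0.73 and -0.88). Fkbp5 (FKBP51), the antagonist of Fkbp4 on steroid receptors, fell as well (log2 fold changes -0.65 and -0.996), and so did Ppid, cyclophilin 40 (log2 fold changes -1.41 and -1.40). Fkbp8, an anchor of HSP90 at mitochondria, rose (log2 fold changes 1.04 and 1.11), as did Nudc (log2 fold changes 0.59 and 0.60). Tomm70a, the receptor to which HSP70 and HSP90 hand mitochondrial precursors, was called lower with both media (log2 fold changes -2.48 and -1.15). These values rest on 5, 2 and 1 counts with shControl-CM and 5, 3 and 5 with shBrca2-CM, near the floor of 3 counts, against 66 and 50 in DMEM.

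Other lists moved with the same comparisons, and their part in these results was not tested. The 11 immediate early genes of a list that responds to handling and growth factors (Fos, Jun and others) summed to 1006 to 1061 CPM in DMEM, 4406 to 4842 CPM with shControl-CM and 2382 to 2920 CPM with shBrca2-CM. Most of this sum was Ier3 in the conditioned medium libraries, with 284 to 328 CPM in DMEM, 3024 to 3430 CPM with shControl-CM and 1385 to 1804 CPM with shBrca2-CM, and Fos was not called. The 12 stellate cell and fibroblast markers summed to 9035 to 10868 CPM, 5977 to 6899 CPM and 5179 to 5815 CPM in the same order. With each medium 6 of them were called lower than in DMEM and 4 higher. The shares over all genes were 18.9% lower and 18.2% higher with shControl-CM and 19.2% and 18.6% with shBrca2-CM. The 8 proliferation genes summed to 993 to 1083 CPM, 1304 to 1540.2 CPM and 1261 to 1379 CPM. Of 7 macrophage and leukocyte markers, 4 were in the table and summed to 10.7 to 12.2 CPM in DMEM, 24.3 to 40.1 CPM with shControl-CM and 13.0 to 29.3 CPM with shBrca2-CM. Csf1r and Cd68 were called higher with shControl-CM (log2 fold changes 2.09 and 2.004) and Cd68 with shBrca2-CM (log2 fold change 1.69), while Ptprc and Adgre1 were not analysed here. Of 5 endothelial markers, Kdr and Tek were in the table and together reached 3.48 CPM at most, and Pecam1 and Cdh5 were not analysed here.

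The DMEM group had 2 libraries, deeper than the others. Leaving 1 out leaves a lone control library that is assumed to vary like the conditioned medium group in the test. Without the first DMEM library, 9 members were called lower and 3 higher with shControl-CM, while calls over all genes went from 2200 higher and 2288 lower to 1019 and 882. The calls lost were those of Bag2, Bag6, Cct4, Cct5, Chordc1, Dnajc4, Dnajc9, Dnajc12, Dnajc18, Dnajc21, Dnajc25, Fkbp4, Hsf2, Hspa8, Hspa9, Hspb6 and Ptges3, while those of Cryab, Hspb2, Hspb7, Hspa1b, Hsp90aa1, Hspd1, Hspe1, Cct6a, Dnajc19, Hsph1, Stip1 and Dnajc2 remained. The lost calls kept their direction, with log2 fold changes such as 1.16 for Dnajc18, -0.85 for Hspa9 and -0.77 for Hspb6. Without the second DMEM library fewer members were called as well, and so were fewer genes over all. Without the second shControl-CM library 14 members were called lower and 7 higher, while calls over all genes went to 1715 higher and 1738 lower. With shBrca2-CM, 25 members were called lower and 5 higher without the first DMEM library and 20 lower and 12 higher without the second.

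Between the conditioned media, a single chaperone gene was called. Of 75 members tested, Cryab was called higher with shBrca2-CM than with shControl-CM (1.33%, against 1.58% of all genes tested) and none was called lower (against 1.55%). With either test of DESeq2 and with a replicate block the counts were likewise 1 and 0. An unadjusted p-value under 0.05 was found for 5 members (1477 of 11035 genes in all). In 3 members all shBrca2-CM libraries were above all shControl-CM libraries (4.00%, against 9.14% of all genes tested), and in 9 they were all below (12%, against 10.6%). The median log2 fold change of the members was -0.10 (0.03 over all genes tested), with 26 positive and 49 negative values. With total counts in place of TMM the median of all genes moved from 0.03 to 0.14 and calls over all genes from 174 higher and 171 lower to 250 and 120, so small values depend on the scaling.

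Cryab had 41, 57 and 34 counts in the 3 shBrca2-CM libraries and 24, 23 and 35 in the 3 shControl-CM libraries, that is 53.5 ± 20.99 CPM (SD, n = 3) against 20.5 ± 4.47 CPM (SD, n = 3). The groups did not overlap, and the difference was 2.62-fold (log2 fold change 1.39 with a standard error of 0.32, edgeR adjusted p = 0.0513). With both media it stayed far below the DMEM libraries. The call was lost without the first or the second shBrca2-CM library and without the second shControl-CM library, where log2 fold changes over all libraries left out ran from 1.13 to 1.71. Hspb7 pointed the same way, at 76.99 ± 15.7 CPM against 51.02 ± 8.27 CPM (SD, n = 3 each) without overlap, but was not called (log2 fold change 0.64 with a standard error of 0.20, edgeR adjusted p = 0.166). Hspb2, the neighbour of Cryab, had 3, 3 and 3 counts against 1, 2 and 4, a difference that was not detectable at this depth (95% interval of the log2 fold change -0.58 to 2.54).

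On the other side, Stip1 and Hsph1 were lower with shBrca2-CM in every library without being called. Stip1 was at 672 ± 67.6 CPM against 932 ± 167 CPM (SD, n = 3 each; log2 fold change -0.44 with a standard error of 0.14, edgeR adjusted p = 0.173). Hsph1 was at 136 ± 28.4 CPM against 189.7 ± 20.9 CPM (SD, n = 3 each; log2 fold change -0.45 with a standard error of 0.17, edgeR adjusted p = 0.265). Both were called lower without the first shControl-CM library, where Cct4 and Hspa13 were called higher and calls over all genes rose from 174 higher and 171 lower to 506 and 470. Dnajc24 also had an unadjusted p-value under 0.05 (log2 fold change -1.04, edgeR adjusted p = 0.357), with an overlap of the libraries. It was called lower without the third shControl-CM library (log2 fold change -1.37), and the log2 fold change was -0.67 without the second. For abundant genes the intervals were narrow. The 95% interval of the log2 fold change was -0.23 to 0.28 for Hspa8, -0.42 to 0.15 for Hsp90ab1, -0.46 to 0.21 for Hspd1, -0.33 to 0.34 for Cct6a and -0.16 to 0.43 for Hsf1. For sparsely counted genes such as Hsf2 (-1.59 to 1.04) and Chordc1 (-0.50 to 2.41) larger differences in either direction would have been missed.

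**Figure D4:**
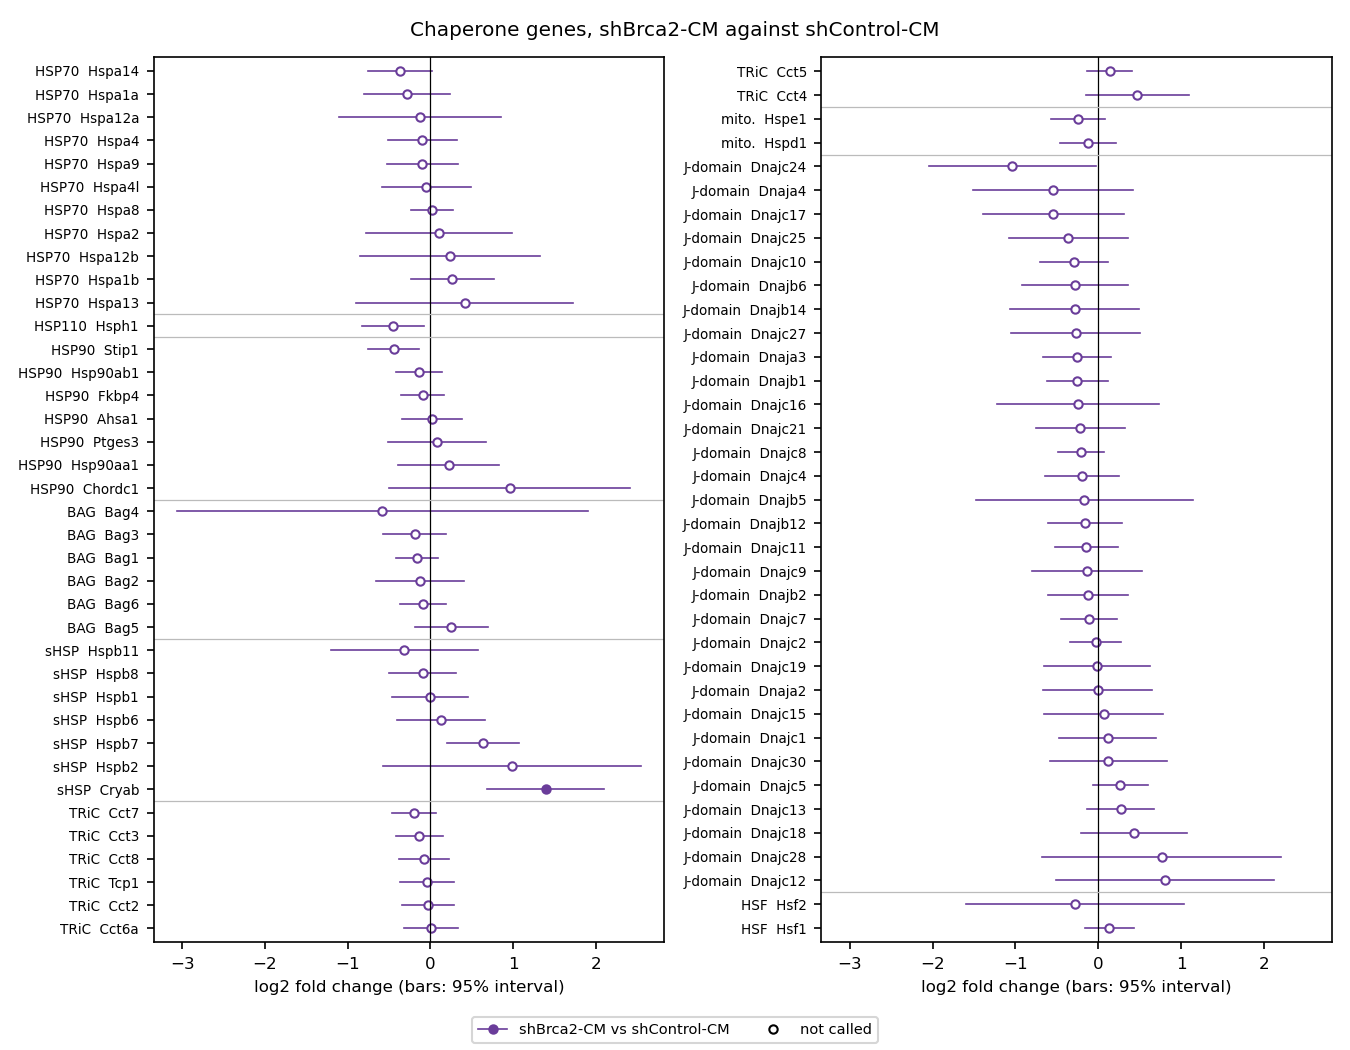
Log2 fold change of 75 members with shBrca2-CM against shControl-CM (horizontal axis; positive is higher with shBrca2-CM), by family, with 95% intervals. Cryab, the only filled circle, was called (1.39), and 26 values are positive and 49 negative.

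Beside these values, Clu differed between the conditioned media by 2.49 on the log2 scale (edgeR adjusted p = 1.27e-05) and Hmox1 by -0.91 (edgeR adjusted p = 0.0142). The other 5 of the 7 further HSF1-linked genes and all 16 co-chaperones outside the rule were not called. Beside these and the following lists, 1.58% of all genes tested were called higher and 1.55% lower. Of the immediate early genes 5 of 11 were called lower with shBrca2-CM (Junb, Atf3, Ier2, Ier3 and Nr4a1), and Krt19 was the single epithelial marker called, higher by 2.12 on the log2 scale. Of the stellate cell and fibroblast markers, Pdgfra was called higher (log2 fold change 0.85) and Pdpn, Dcn and Lum lower (-1.07, -0.93 and -1.59). Their part in the values of Cryab, Stip1 and Hsph1 was not tested.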

How the data were processed

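RNA of 8 PSC cultures was turned into 3′ libraries by a bulk variant of MARS-seq, in which molecules carry barcodes. The authors deposited raw counts per gene for all libraries in a single table. According to the submitters' processing notes, bcl2fastq, cutadapt, STAR 2.4.2a, HTSeq and DESeq2 were used with the mm10 build, while the treatment of molecular barcodes, the strand setting, the annotation and the rule by which the 12160 genes of the table were selected are not given in the sources used here. Besides overlaps named with single genes, Hspb6 (Proser3 and Lin37), Hsp90ab1 (Slc35b2), Dnajc24 (Immp1l), Dnajc9 (Fam149b) and other members also overlap genes on the opposite strand. The table also holds 1 further column, headed as another DMEM library, of a sample that the labels do not list. It was not used here, so calls against DMEM rest on 2 control libraries.

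Each pair of groups was compared with the quasi-likelihood test of edgeR 4.0.16 (limma 3.58.1, R 4.3.3) on these counts, with TMM scaling, a minimum of 10 counts summed over the compared libraries and Benjamini-Hochberg adjustment over all genes tested (11035 between the conditioned media, 12086 and 12049 against DMEM). Fold changes are on the log2 scale with standard errors and 95% intervals from the same fit. The thresholds for calls, given with the results, follow the study's methods. When the test was run on simulated counts, it recovered large known changes of well expressed genes with the right sign, and the share of false calls among calls was clearly above the nominal level for shControl-CM against DMEM and close to it for the other comparisons. Intervals of count ratios are exact binomial ones, and floors and such intervals cover counting error only. Total counts ran from 655996 to 5476988 per library. Libraries of a group differed by more than sampling noise (chi-square per degree of freedom 1.65 to 8.35), so all were kept as separate replicates.

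Alternatives were the likelihood ratio and Wald tests of DESeq2 1.42.0, its size factors or total counts as scaling, no filter or at least 30 counts, a fit of all 3 groups, a block on the replicate number, stricter (adjusted p under 0.05, log2 fold change over 1) and no fold limits, libraries thinned to the smallest total, and each of the 8 libraries left out in turn. Of single genes, only members were followed through these alternatives. The members and lists were chosen with earlier results of these data known. Genes named by rule were the heat shock core, Hsf1, Hsf2, the 8 largest called changes per comparison and the 5 smallest p-values between the conditioned media. Other members were named as parts of a family's count, after their values were seen. Start sites and sequences came from RefSeq on GRCm38.p6.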

Additional observations from a re-analysis of the deposited data

How the results depend on the processing

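Over all members and alternatives no log2 fold change of a called member reversed. Between the conditioned media, the single higher call became 2 with total counts (Cryab and Hspb7), 0 with the stricter limits and 0 to 3 with libraries left out, and lower calls ran from 0 to 2 with libraries left out. With shControl-CM against DMEM, 8 higher and 21 lower calls became 4 and 6 with the stricter limits and 3 to 9 and 9 to 25 with libraries left out, with 14 lower calls in the thinned libraries. With shBrca2-CM against DMEM, 8 and 24 became 3 and 7 with the stricter limits, 13 and 29 without a fold limit, and 5 to 12 and 20 to 25 with libraries left out. The median over the heat shock core ran from -0.55 to -0.34 and from -0.65 to -0.37 with libraries left out.

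Replicate numbers were not taken as pairs, since deviations of same-numbered shBrca2-CM and shControl-CM libraries correlated at -0.03, -0.007 and 0.12. With a replicate block the calls were 1 higher and 0 lower between the conditioned media, 8 and 19 with shControl-CM and 7 and 20 with shBrca2-CM. The depth of the conditioned medium libraries limits genes of few counts, such as Hsf2, Hspb2, Chordc1, Bag4 and Dnajc22.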

Other observations

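Of 5 members listed for the endoplasmic reticulum (Hspa13, Dnajc1, Dnajc10, Dnajb12 and Dnajb14), none was called with shControl-CM. With shBrca2-CM Dnajc1 was called higher (log2 fold change 0.62) and Dnajb14 lower (log2 fold change -0.72). The shares of all genes called higher and lower were 18.2% and 18.9% with shControl-CM, and 18.6% and 19.2% with shBrca2-CM. The list for this compartment may not be complete, and Dnajc18 and Dnajc25, called with both media, were not on it. Dnajc10, a reductase of that compartment, was at 0.31 and 0.01 on the log2 scale without a call, and Hspa13 at -1.03 and -0.65. Dnajc5, the cysteine string protein of secretory vesicles, was the only J-domain gene with all shBrca2-CM libraries above all shControl-CM libraries (103, 87.1 and 103 CPM against 83.9, 80.2 and 83.5 CPM, log2 fold change 0.27, edgeR adjusted p = 0.497).

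The primer pair that the study lists for HSF1 at the Hspa1a promoter was found on the upstream sequences of both Hspa1a and Hspa1b, so these letters do not separate the pair.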
